A study of Mus musculus with 24 samples.

Results

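The genes described here are 36 enzymes of amino acid breakdown, picked by symbol from the deposited expression table of a mouse kidney injury study, out of 40750 genes in that table. The rule went by name and used no measured value, but the list was chosen with earlier results of these data known. All 36 were among the 13721 genes that reached 1 RPKM (reads scaled to exon length and library size) in at least 3 libraries and were tested. The animals were male mice aged 8 to 10 weeks of mixed background with the genotype Kim1-GCE+/-; EGFPL10a+/-. Sham and injured mice thus carried both alleles, and per the labels all received tamoxifen 6 hours before surgery and 24 hours after it. Injured mice had the renal pedicles of both kidneys clamped for 20 minutes and were taken at day 2, day 7 or day 14, while sham mice went through the surgery without the clamp. Each group held 3 mice. Kidney homogenate was passed over beads coated with an antibody against GFP, a method known as translating ribosome affinity purification, which gave bound RNA and an unbound remainder that the labels equate with total kidney. With both fractions taken from each mouse, the 12 mice gave 24 libraries in 8 groups of 3. The labels do not say that bound and unbound libraries of the same number share a mouse, and this was checked from the data.

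Kim1, the product of Havcr1, is a surface protein that proximal tubule cells make after injury. In this model the Kim1-GCE allele drives a tamoxifen-dependent Cre, and cells in which Cre acts carry a GFP-tagged ribosomal protein, so bound RNA is meant to come from cells that switched on Kim1. Kim1 is scarce in uninjured kidney, and Havcr1 stood at 2.87 ± 2.38 RPKM (mean ± SD of 3 libraries, as throughout) in sham bound RNA and at 125 ± 80.9 at day 2. The sham bound libraries are the reference of every bound comparison below.

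The proximal tubule reabsorbs the filtered amino acids and breaks down or converts many of them. It makes arginine from citrulline, the first intermediate of creatine, and glutamate from proline, and its mitochondria oxidise the carbon skeletons of leucine, isoleucine and valine. Many of these enzymes are shared with the liver, and each of the pathways below runs through several of them in series.

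Depths inferred from the spacing of low values were 15700000 to 24700000 reads per library. Replicate 3 of day 14 stood apart in both fractions. Correlated across genes with the mean of its 2 group mates, it gave r = 0.901 in bound RNA and 0.941 in unbound RNA. Its mates gave 0.975 and 0.980 with each other. Sham bound replicate 3, part of the reference of every bound comparison, gave r = 0.936, where its mates gave 0.972 with each other. It also had the lowest enzyme sum of the sham bound libraries, given below, and a principal cell sum of 1181 RPKM against 126 and 309. Without it 30, 25 and 21 members were called lower in bound RNA at day 2, 7 and 14, in place of the 29, 23 and 16 below. Shares of all genes were not counted in this or any other fit with a library left out. All 13721 genes had median log2 folds against sham between 0.13 and 0.22, and after median-ratio rescaling of the libraries between -0.04 and 0.02. The labelled tissue was checked with 12 proximal tubule markers, all of which were above 0 in every library. Their summed level was 1017 to 1345 RPKM in sham bound libraries and 2797 to 3117 in sham unbound libraries, so that the bound RNA of uninjured kidney was poorer in these markers. Of the 12 markers, 9 were lower in bound than in unbound RNA of sham kidney and none was higher. By contrast 4 of 4 podocyte markers and 3 of 4 tested principal cell markers were higher, with podocyte sums of 58.4 to 166 RPKM against 15.2 to 22.4 and principal cell sums of 126 to 1181 RPKM against 67.9 to 105. Avpr2, the remaining marker of the principal cell list, was at 0 in most libraries and was not tested. The part of these other cells in the values below was not tested.

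The enzymes as a set were lower after injury. In bound RNA at day 2, 29 of the 36 were called lower than in sham and none higher, with a median log2 fold of -1.61 against 0.16 for all genes. Calls throughout are adjusted p-values under 0.05 over all tested genes, from limma on log2 (RPKM + 0.5), so folds of the scarcest genes are understated. Of all tested genes, 6.48% were called lower and 13.3% higher in that comparison, or 11.4% and 9.92% after rescaling, under which 31 members were called lower. At day 7 the count was 23 lower and none higher (median -1.40, with 7.55% of all genes called lower and 15.2% higher, or 13.3% and 11.4% after rescaling). At day 14 it was 16 lower and none higher (median -0.92, with 4.58% of all genes lower and 8.71% higher, or 8.67% and 5.94% after rescaling). In unbound RNA at day 2, 17 were called lower and none higher (median -0.95, with 5.04% of all genes lower and 9.76% higher, or 7.82% and 8.07% after rescaling). The day 14 count was 8 without sham bound replicate 1 or 2 and 9 without day 14 bound replicate 1, and the unbound count was 9 without day 2 replicate 2 and 11 without sham replicate 3. Fits of only the 2 groups compared estimate the spread from their own libraries alone. They called 7, 21 and 0 members lower in bound RNA at day 2, 7 and 14. Of all genes, 0.598%, 5.12% and 0.0437% were lower in these fits. In unbound RNA at day 2 such a fit called 24 members lower, with 7.03% of all genes lower. The comparisons within a fraction share their sham libraries.

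**Figure D1:**
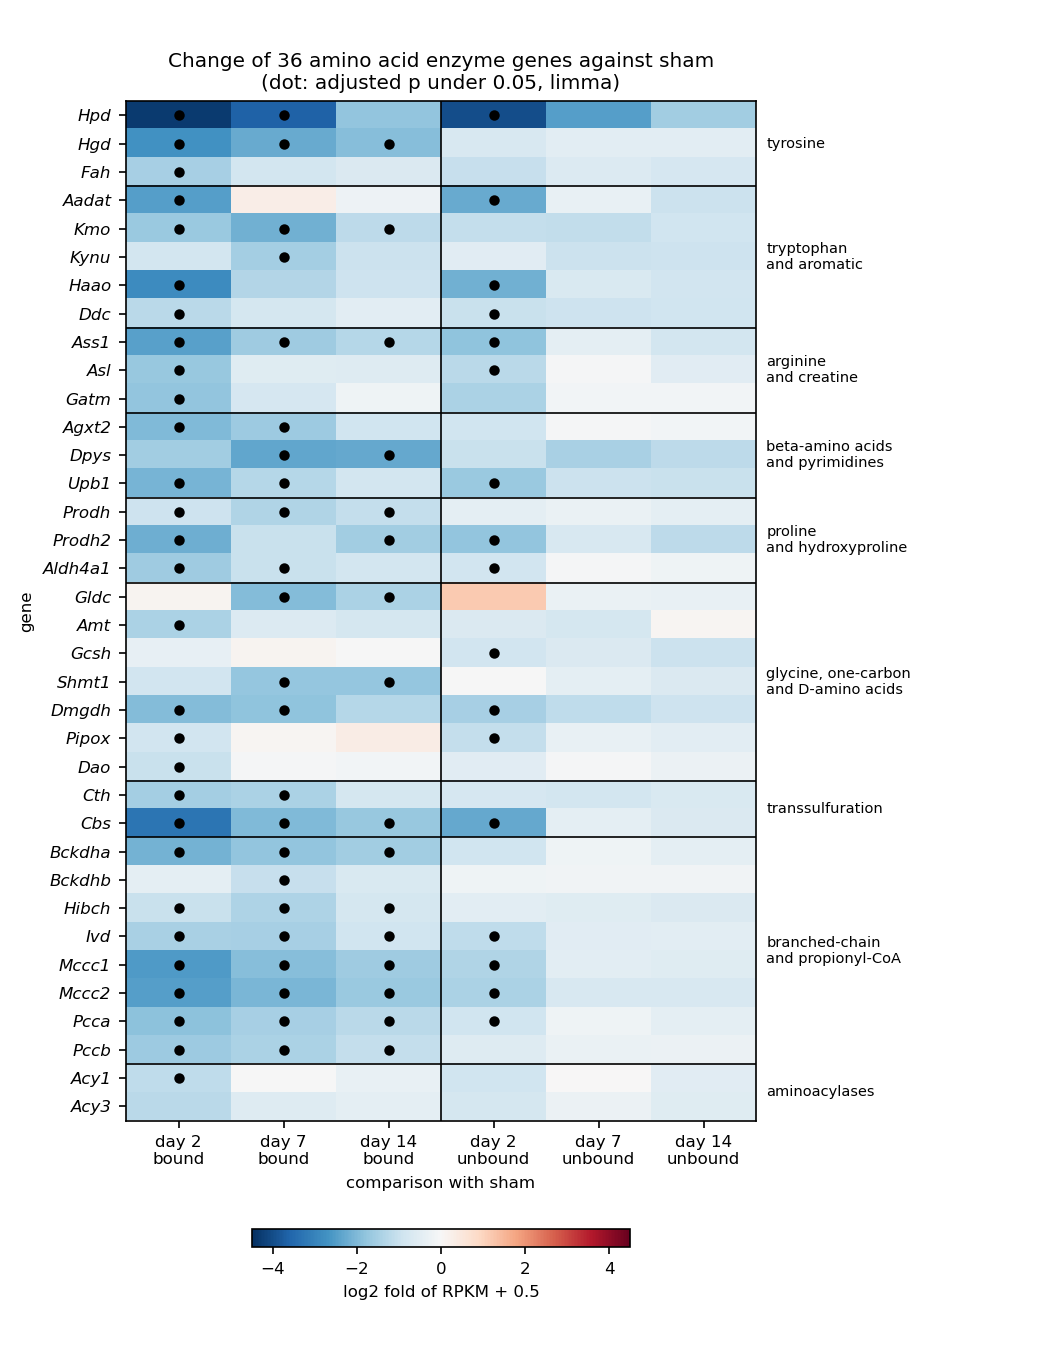
Colour gives the log2 fold of RPKM + 0.5 against sham for the 36 genes (vertical axis, grouped by role) in 6 comparisons (horizontal axis), and a dot marks an adjusted p under 0.05 by limma. Dots fill 29, 23 and 16 cells of the bound columns at day 2, 7 and 14 and 17 of the unbound column at day 2, all of them blue (lower), and the unbound columns at day 7 and 14 hold none.

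In unbound RNA at day 7 and day 14 no member was called by limma, where 0.182% and 0.248% of all genes were called lower and 0.911% and 0.984% higher. At an unadjusted p under 0.05, 9 members were lower at day 7 and 10 at day 14, and none was higher. The share of all genes at an unadjusted p under 0.05 was not counted, here or below, so such counts have no background beside them. The lowest adjusted p was 0.112 at day 7 (Hpd) and 0.0858 at day 14 (Gcsh). Medians over the members were -0.47 and -0.60, against 0.18 and 0.22 for all genes, and the day 14 median was -0.29 without replicate 3. A fit of the day 7 and sham unbound libraries alone called 14 members lower at day 7, with 2.49% of all genes lower, and the same kind of fit called none at day 14.

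Summed over the 36 genes, the sham bound libraries held 10855, 8653 and 6006 RPKM, or 1.51% to 2.97% of a library's total. At day 2 the sums were 4877, 1783 and 1978 RPKM, and replicate 1 stood well above the others. Day 7 bound libraries held 3686 to 4537 RPKM and day 14 bound libraries 3812 to 5163, all below the lowest sham library. Unbound sums were 4680 to 5757 RPKM in sham, 1862 to 3225 at day 2, 3719 to 4338 at day 7 and 2301 to 4371 at day 14. Acy3 alone made up 1257 to 3224 RPKM of the sham bound sums. In such bulk RNA, fewer cells of a type and less RNA per cell cannot be told apart.

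The proximal tubule markers did not follow the same course in bound RNA. Their sums were 522 to 799 RPKM at day 2, 1127 to 1555 at day 7 and 815 to 2641 at day 14, so that the later days overlapped sham. At day 14 replicate 3 held the lowest sum in both fractions and the highest macrophage sum. Of the 12 markers, 4 were lower than sham at day 2 (median of the list -0.56), 2 at day 7 (median 0.13) and none at day 14 (median 0.28), and none was higher. In bound RNA the marker list thus had a higher median than the enzymes at each day, a difference that was not tested. In unbound RNA the marker sums were 751 to 1660 RPKM at day 2, with 5 of 12 lower and a median of -1.07. The unbound marker medians were -0.44 at day 7 and -0.51 at day 14. Those of the enzymes in unbound RNA were -0.95, -0.47 and -0.60 at day 2, 7 and 14, close to those of the markers. The injured tubule list (Havcr1, Lcn2, Krt20, Sox9, Vcam1 and Spp1) had 5 of 6 members higher in bound RNA at each day. Bound sums were 211 to 325 RPKM in sham and 6300 to 11682 at day 2. Unbound sums were 340 to 586 RPKM in sham and 12716 to 17361 at day 2, above every bound library. In unbound RNA 6, 6 and 5 of the 6 were higher at day 2, 7 and 14. None of the 6 was called between the fractions at these days. Podocyte sums in bound RNA were 25.3 to 37.2 RPKM at day 7, where 4 of 4 markers were lower than sham. Markers of other tubule segments were also lower in bound RNA at day 2 for 1 of 5 thick ascending limb, 1 of 3 distal convoluted tubule, 1 of 4 principal cell and 1 of 5 intercalated cell genes, while 3 of 5 stroma and 2 of 2 neutrophil genes were higher. None of 3 hepatocyte, 5 endothelium, 3 erythroid and 2 lymphocyte genes was called there. Macrophage sums were 154 to 285 RPKM in sham bound RNA, 92.1 to 283 at day 2, 876 to 1440 at day 7 and 621 to 4324 at day 14, and the part of these cells in the enzyme values was not tested.

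**Figure D2:**
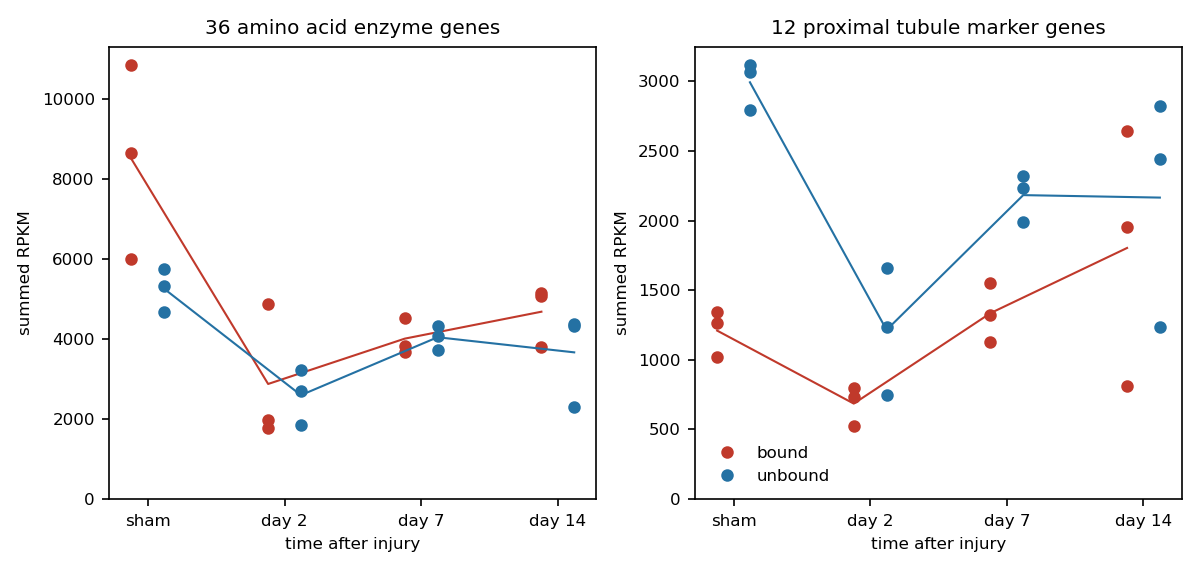
Points are single libraries, lines join the means of 3, and the vertical axes give RPKM summed over the 36 enzyme genes (left) and over 12 proximal tubule markers (right) at each time (horizontal axis). Bound sums of the enzymes stay under the lowest sham library (6006 RPKM) at every day, while bound sums of the markers reach 1127 to 1555 RPKM at day 7 against 1017 to 1345 in sham.

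Promoter sequence is shown for 3 members that were lower together in bound RNA at day 2 and whose start region holds a motif of HNF4A or HNF1, transcription factors known from proximal tubule and liver. RefSeq promoters of GRCm38.p6, reaching from 250 bases before to 50 after a start, were found for 32 of the 36 genes, 38 promoters in all. The HNF4A-type letters CAAAGTCCA (opposite strand TGGACTTTG) stood in 156 of all 32851 promoters (0.475%) and in those of 3 members, Aadat, Agxt2 and Pipox. An HNF1-type motif, searched on both strands, with 9 fixed letters and 1 free one and no overlap with the first motif, stood in 131 promoters (0.399%) and in that of 1 member, Prodh2. The 250 bases before the start are given 5′ to 3′ on the gene's strand, with the matching letters in capitals. The Aadat window is chr8:60505874-60506123, plus strand, with the match on the opposite strand starting 72 bases before the start. The Agxt2 window is chr15:10358329-10358578, plus strand, with the match 67 bases before the second of 2 listed starts. The Prodh2 window is chr7:30493408-30493657, plus strand, with the match on the opposite strand starting 128 bases before the start.
Aadat: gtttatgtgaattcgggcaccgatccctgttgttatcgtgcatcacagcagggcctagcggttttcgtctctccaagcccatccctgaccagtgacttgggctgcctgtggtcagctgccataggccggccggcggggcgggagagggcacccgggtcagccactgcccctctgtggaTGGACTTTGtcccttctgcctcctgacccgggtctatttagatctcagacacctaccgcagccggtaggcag
Agxt2: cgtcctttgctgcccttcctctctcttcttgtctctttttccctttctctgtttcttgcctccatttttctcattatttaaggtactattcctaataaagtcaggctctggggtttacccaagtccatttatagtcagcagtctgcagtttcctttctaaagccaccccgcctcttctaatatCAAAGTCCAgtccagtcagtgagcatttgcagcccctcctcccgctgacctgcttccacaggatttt
Prodh2: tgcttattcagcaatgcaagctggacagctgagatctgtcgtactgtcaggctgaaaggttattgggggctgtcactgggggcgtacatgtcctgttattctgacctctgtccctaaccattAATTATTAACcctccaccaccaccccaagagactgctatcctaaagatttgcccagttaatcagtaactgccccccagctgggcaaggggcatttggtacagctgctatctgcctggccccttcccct
The Pipox match lies past the start. These are matches of letters and say nothing of binding in these samples.

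Tyrosine is broken down by Hpd, hydroxyphenylpyruvate dioxygenase, then Hgd, which opens the ring of homogentisate, and Fah, which performs the last cleavage. All 3 were lower in bound RNA at day 2, 2 at day 7 and 1 at day 14, and Hpd alone was lower in unbound RNA at day 2. Hpd had the lowest log2 fold of all members at day 2. In replicate order, bound Hpd (RPKM) was 54.5, 108 and 21.7 in sham, 3.41, 0.386 and 4.48 at day 2, 3.84, 4.54 and 2.59 at day 7, and 25.2, 13.5 and 8.81 at day 14. Unbound Hpd (RPKM) was 35.1, 73.6 and 27.1 in sham, 3.70, 0.359 and 4.39 at day 2, 9.31, 11 and 3.34 at day 7, and 26.7, 19.5 and 4.81 at day 14. Day 2 and day 7 lay wholly below sham in both fractions, and day 14 overlapped sham in bound RNA and lay just under it in unbound RNA. Hpd fell 19.7-fold in bound RNA at day 2 (log2 fold -4.30, SE 0.75, adjusted p = 0.000464) and 12.5-fold at day 7 (log2 fold -3.64, SE 0.75, adjusted p = 0.00225). At day 14 the log2 fold was -1.77 (adjusted p = 0.115). In unbound RNA it fell 16-fold at day 2 (log2 fold -4.00, SE 0.75, adjusted p = 0.0011). The lowest Hpd values, 0.386 and 0.359 RPKM, were both of day 2 replicate 2 and stand for roughly 12 reads. That number is approximate, as the exon length used did not give whole reads for Hpd in every library.

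Hgd, singled out after its values were seen, was lower than sham in bound RNA at each day. Its mean was 713 ± 119 RPKM in sham bound RNA, 160.0 ± 177 at day 2, 147 ± 15.8 at day 7 and 187 ± 32.2 at day 14, and no injured library overlapped sham. Log2 folds were -2.72, -2.27 and -1.93 (adjusted p = 0.00034, 0.00194 and 0.0106). In unbound RNA its sham mean was 148 ± 15 RPKM and its log2 folds were -0.72, -0.48 and -0.48, none of them called. Fah fell by 1.5 on the log2 scale in bound RNA at day 2, from 476 ± 159 to 179 ± 102 RPKM, a call lost without day 2 bound replicate 2 (adjusted p = 0.0739).

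Tryptophan is degraded along the kynurenine pathway. Kmo hydroxylates kynurenine, Kynu cleaves the product, Haao opens the ring on the way to the NAD precursor quinolinate, and Aadat transfers the amino group of kynurenine and of aminoadipate. Ddc decarboxylates aromatic amino acids and makes dopamine in the tubule. Aadat, Kmo, Haao and Ddc were lower in bound RNA at day 2, Kmo and Kynu at day 7, and Kmo alone at day 14. Unbound RNA at day 2 had Aadat, Haao and Ddc lower.

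Bound Haao (RPKM) was 814, 658 and 242 in sham, 230.1, 30.4 and 50.5 at day 2, 248, 212 and 159.6 at day 7, and 309.7, 300.1 and 197 at day 14. Unbound Haao (RPKM) was 320.4, 263 and 259.5 in sham, 129, 29.3 and 61.6 at day 2, 159.5, 223 and 149.8 at day 7, and 195, 212 and 88.6 at day 14. All unbound injured libraries lay below unbound sham, and in bound RNA day 2 lay below sham while day 7 and day 14 overlapped the low sham replicate 3. Haao fell 7.10-fold in bound RNA at day 2 (log2 fold -2.83, SE 0.58, adjusted p = 0.00203) and 4.51-fold in unbound RNA (log2 fold -2.17, SE 0.58, adjusted p = 0.0155). The unbound call was lost without sham unbound replicate 1 or day 2 unbound replicate 2, with an adjusted p of up to 0.121.

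Aadat, singled out after its values were seen, fell to day 2 and rose to day 7. It was 138, 119.5 and 108 RPKM in sham bound libraries, 47.2, 15.4 and 13.5 at day 2, 296, 89.5 and 129 at day 7 and 164, 89.2 and 76.5 at day 14. Day 2 lay wholly below sham, and the later days overlapped it, with the first day 7 library far above the others. The log2 fold against sham was -2.47 at day 2 (adjusted p = 0.000495), 0.31 at day 7 (adjusted p = 0.641) and -0.22 at day 14 (adjusted p = 0.761). Kmo took another course, with means of 33.9 ± 11.3 RPKM in sham, 11.1 ± 6.73 at day 2, 7.08 ± 1.57 at day 7 and 14.2 ± 1.14 at day 14 and no overlap with sham. Its log2 folds were -1.67, -2.15 and -1.18 (adjusted p = 0.00389, 0.000693 and 0.0422), and the day 14 call was lost when any library but sham bound replicate 3 was left out (adjusted p of up to 0.164). Kynu was the scarcest member in sham bound RNA, at 5.15 ± 2.88 RPKM, and its day 7 call (-1.54) was lost when any library but sham bound replicate 1 was left out (adjusted p of up to 0.192). Ddc fell by 1.21 on the log2 scale in bound RNA at day 2, a call lost without sham bound replicate 1 or 2 or day 2 bound replicate 2 or 3 (adjusted p of up to 0.0747), and its unbound call was lost when any library but day 2 replicate 3 was left out.

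Ass1 and Asl join and split argininosuccinate and so make arginine from citrulline, and Gatm makes guanidinoacetate, the precursor of creatine. All 3 were lower in bound RNA at day 2, and Ass1 alone was lower at day 7 and day 14. Ass1 was the second most abundant member in sham bound RNA. Bound Ass1 (RPKM) was 1042, 839 and 634 in sham, 326, 136 and 79.7 at day 2, 243, 307 and 264 at day 7, and 263, 442 and 340.0 at day 14. Unbound Ass1 (RPKM) was 431, 503 and 606 in sham, 209, 141 and 104 at day 2, 419, 389 and 315 at day 7, and 367, 353 and 179 at day 14. No injured library overlapped sham in either fraction, although day 7 unbound replicate 1 came within a few percent of the lowest sham library. Ass1 fell 5.38-fold in bound RNA at day 2 (log2 fold -2.43, SE 0.39, adjusted p = 0.000198) and 3.03-fold at day 7 (log2 fold -1.60, SE 0.39, adjusted p = 0.0061). The day 14 fall of 2.41-fold (adjusted p = 0.035) was lost without sham bound replicate 1 or 2 or day 14 bound replicate 1, with an adjusted p of up to 0.126. In unbound RNA it fell 3.49-fold at day 2 (log2 fold -1.80, SE 0.39, adjusted p = 0.00341).

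Asl went from 126 ± 31.7 RPKM in sham bound RNA to 40.6 ± 17.7 at day 2 (log2 fold -1.69, adjusted p = 0.000869), 86.3 ± 14.1 at day 7 and 84.0 ± 23.1 at day 14. It fell by 1.23 on the log2 scale in unbound RNA at day 2, a call lost without sham unbound replicate 3 or day 2 unbound replicate 3. Gatm went from 413 ± 164 to 145 ± 100.05 RPKM in bound RNA at day 2 (log2 fold -1.79, adjusted p = 0.0256) and was at 375 ± 198 RPKM at day 14. Its libraries overlapped at each day, and its call was lost without sham bound replicate 1 or 3 or day 2 bound replicate 3 (adjusted p of up to 0.197).

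Dpys and Upb1, dihydropyrimidinase and ureidopropionase, turn pyrimidine bases into beta-amino acids, and Agxt2 is a mitochondrial aminotransferase of beta-aminoisobutyrate and of dimethylarginine. Agxt2 and Upb1 were lower in bound RNA at day 2, all 3 at day 7, and Dpys alone at day 14. Dpys was scarce: bound Dpys (RPKM) was 12.3, 5.17 and 3.70 in sham, 5.21, 0.559 and 1.41 at day 2, 1.23, 0.280 and 1.22 at day 7, and 1.15, 0.642 and 0.820 at day 14. Unbound Dpys (RPKM) was 6.75, 2.85 and 2.40 in sham, 2.28, 0.502 and 2.71 at day 2, 1.0, 1.0 and 1.04 at day 7, and 2.51, 1.13 and 0.717 at day 14. Day 2 overlapped sham through replicate 1 in bound RNA and through replicate 3 in unbound RNA, while day 7 and day 14 lay wholly below sham in bound RNA. The log2 fold in bound RNA was -1.57 at day 2 (adjusted p = 0.0504), and Dpys fell by 2.35 on the log2 scale at day 7 (SE 0.56, adjusted p = 0.00548) and by 2.31 at day 14 (adjusted p = 0.0116). The day 14 call was lost without sham bound replicate 1, the highest Dpys library (adjusted p = 0.066). Agxt2 went from 71.7 ± 9.74 RPKM in sham bound RNA to 19.7 ± 12.3 at day 2, 23.5 ± 6.53 at day 7 and 38.5 ± 4.26 at day 14, with log2 folds of -1.99, -1.62 and -0.88, of which the first and second were called. Upb1 had log2 folds of -2.08, -1.28 and -0.81, again with the first and second called. Its day 7 call was lost without sham bound replicate 1 or 2 or day 7 bound replicate 2 or 3 (adjusted p of up to 0.11). Upb1 alone of the group was lower in unbound RNA at day 2 (log2 fold -1.69), a call lost without day 2 unbound replicate 2 (adjusted p = 0.0745).

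Prodh and Prodh2 are the dehydrogenases of proline and hydroxyproline, and Aldh4a1 carries out the next oxidation toward glutamate. All 3 were lower in bound RNA at day 2, Prodh and Aldh4a1 at day 7, and Prodh and Prodh2 at day 14. Bound Prodh2 (RPKM) was 61.4, 75.8 and 54.5 in sham, 32.2, 10.2 and 7.28 at day 2, 29.7, 33.3 and 32.2 at day 7, and 17, 24.7 and 22.7 at day 14. Unbound Prodh2 (RPKM) was 46.4, 61.7 and 73.4 in sham, 28.3, 9.80 and 17.1 at day 2, 41.2, 33 and 32.8 at day 7, and 30.5, 34.2 and 16.7 at day 14. Every injured library lay below every sham library of its fraction. Prodh2 fell 4.58-fold in bound RNA at day 2 (log2 fold -2.19, SE 0.40, adjusted p = 0.000744) and 2.94-fold at day 14 (log2 fold -1.56, SE 0.40, adjusted p = 0.0157). The day 7 log2 fold was -0.99 (adjusted p = 0.0806). The day 14 call was lost without sham bound replicate 2 or day 14 bound replicate 1 (adjusted p of up to 0.0679). In unbound RNA Prodh2 fell 3.46-fold at day 2 (log2 fold -1.79, SE 0.40, adjusted p = 0.00468). Prodh had bound log2 folds of -0.93, -1.35 and -1.09 and Aldh4a1 of -1.60, -1.01 and -0.83. The Prodh calls of day 2 and day 14 were lost without sham bound replicate 1 or 2, that of day 2 also without day 2 bound replicate 2 or 3 and that of day 14 without day 14 bound replicate 1, and its day 7 call was kept whichever library was left out. The day 7 call of Aldh4a1 was lost without sham bound replicate 1 or 2 or day 7 bound replicate 1, and its unbound fall at day 2 (-0.86) when any 1 library was left out.

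**Figure D3:**
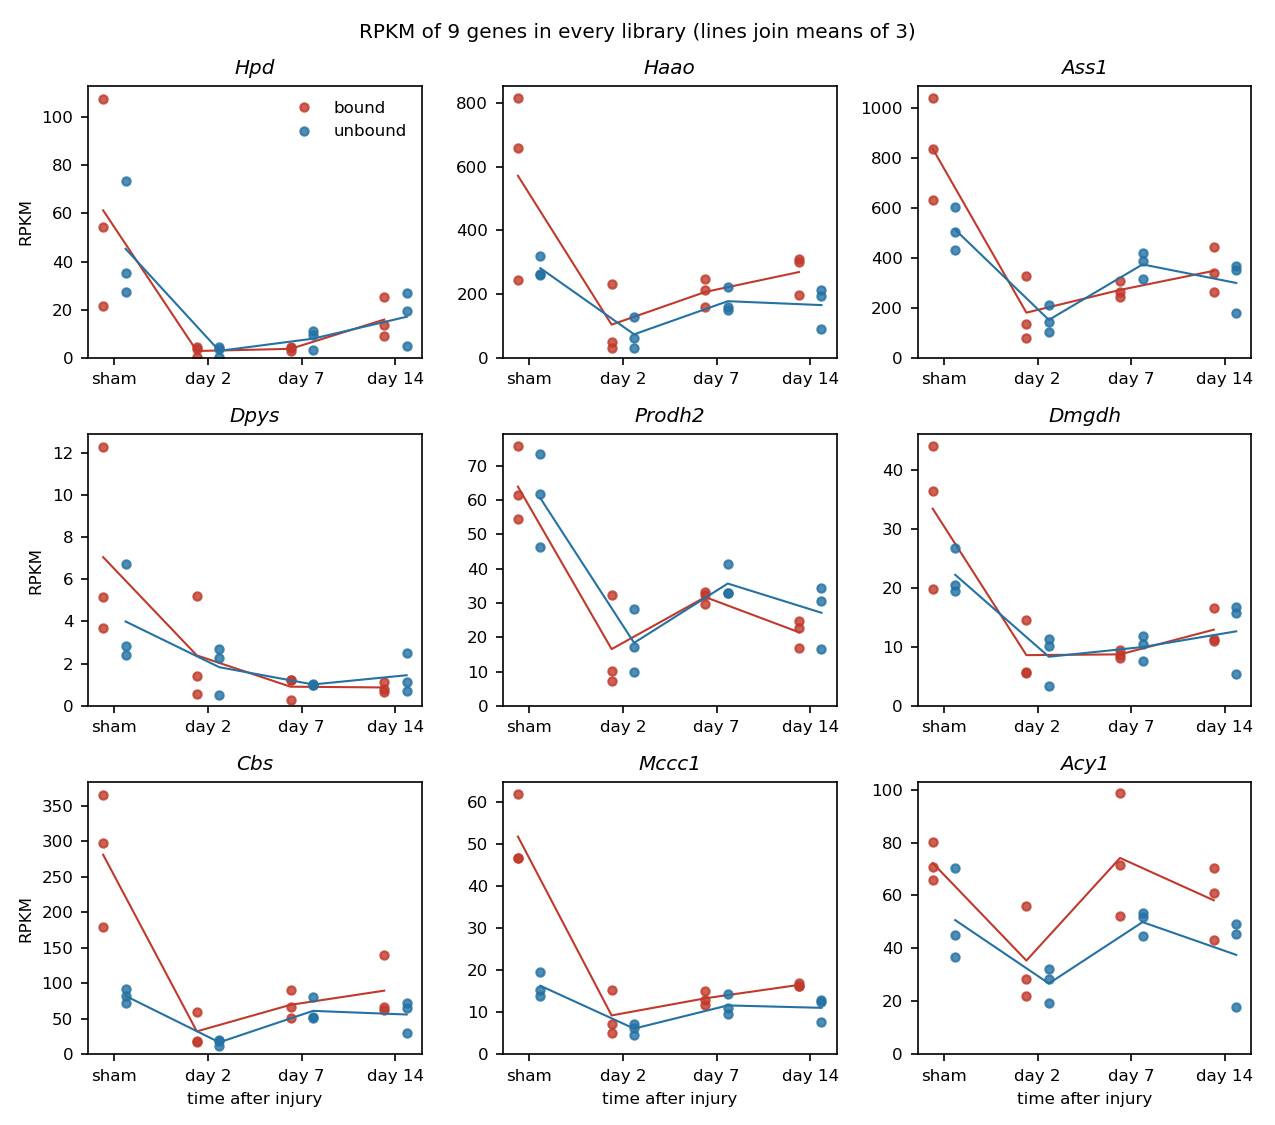
Points give RPKM (vertical axes, from 0) of 9 genes, the member with the largest called fold of each role group, in every bound and unbound library at each time (horizontal axes), and lines join means of 3. In bound RNA at day 2 every Hpd, Ass1, Cbs and Mccc1 point lies under all sham points of its gene, whereas Dpys overlaps sham through the 5.21 RPKM of replicate 1 and Acy1 overlaps sham at day 7 and day 14.

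In the glycine and one-carbon group 4, 3 and 2 of the 7 genes were called lower in bound RNA at day 2, 7 and 14. Gldc, Amt and Gcsh are proteins of the mitochondrial glycine cleavage system, Shmt1 interconverts serine and glycine in the cytosol, Dmgdh oxidises dimethylglycine, Pipox oxidises pipecolate and sarcosine, and Dao oxidises D-amino acids. Amt, Dmgdh, Pipox and Dao were lower in bound RNA at day 2, Gldc, Shmt1 and Dmgdh at day 7, and Gldc and Shmt1 at day 14. Bound Dmgdh (RPKM) was 36.4, 44.1 and 19.9 in sham, 14.5, 5.69 and 5.63 at day 2, 9.55, 8.57 and 8.09 at day 7, and 16.6, 11 and 11.3 at day 14. Unbound Dmgdh (RPKM) was 20.5, 26.7 and 19.5 in sham, 10.2, 3.39 and 11.4 at day 2, 10.5, 11.8 and 7.63 at day 7, and 16.8, 15.7 and 5.48 at day 14. No injured library overlapped sham in either fraction. Dmgdh fell 3.89-fold at day 2 (log2 fold -1.96, SE 0.43, adjusted p = 0.00334) and 3.50-fold at day 7 (log2 fold -1.81, SE 0.43, adjusted p = 0.00568) in bound RNA, and 2.85-fold at day 2 in unbound RNA (log2 fold -1.51, SE 0.43, adjusted p = 0.0221). The unbound call was lost without sham unbound replicate 1 or 2 or day 2 unbound replicate 2 (adjusted p of up to 0.177), and the day 14 log2 fold in bound RNA was -1.29 (adjusted p = 0.0512).

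Gldc, the decarboxylase of the glycine cleavage system, was singled out after its values were seen. It was 49.3, 40.5 and 36.7 RPKM in sham bound libraries, 61.3, 30.6 and 51.4 at day 2, 10.1, 12.1 and 9.27 at day 7 and 9.56, 18.6 and 19.8 at day 14. Day 2 overlapped sham and the later days lay wholly below it, with log2 folds of 0.13, -1.96 and -1.43 (adjusted p = 0.871, 0.00444 and 0.04), of which the day 14 call was lost without sham bound replicate 1 or 2 or day 14 bound replicate 1 or 2 (adjusted p of up to 0.161). In unbound RNA it stood at 18.1, 13.7 and 18.2 RPKM in sham and 26.9, 21.0 and 99.1 at day 2, where the third library was far above the others and the groups did not overlap (log2 fold 1.19, adjusted p = 0.0774). Gcsh, the lipoyl carrier of the same system, had bound log2 folds of -0.38, 0.13 and 0.00 with none called, and fell by 0.88 on the log2 scale in unbound RNA at day 2 (adjusted p = 0.0438), a call lost when any library but day 2 unbound replicate 1 was left out. Amt was 8.09 ± 2.04 RPKM in sham bound RNA and 2.72 ± 1.04 at day 2 (log2 fold -1.44, adjusted p = 0.0297). Folds of the 3 genes of this system thus lay apart at day 2, and the difference between them was not tested. Shmt1 had bound log2 folds of -0.85, -1.73 and -1.74 with the last 2 called, Pipox of -0.87, 0.10 and 0.32 with the first called, and Dao of -0.99, -0.05 and -0.13 with the first called. The calls of Amt, Pipox and Dao at day 2 were each lost without sham bound replicate 1 or day 2 bound replicate 3, those of Amt and Dao also without sham bound replicate 2, and those of Amt and Pipox without day 2 bound replicate 2. Pipox was also lower in unbound RNA at day 2 (log2 fold -1.08).

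Transsulfuration makes cysteine from homocysteine, with Cbs forming cystathionine and Cth cleaving it. Both genes were lower in bound RNA at day 2 and day 7, and Cbs at day 14 too. Bound Cbs (RPKM) was 365, 298 and 179.6 in sham, 59.8, 17.6 and 18.7 at day 2, 90.6, 66.6 and 50.9 at day 7, and 140.1, 62.1 and 65.9 at day 14. Unbound Cbs (RPKM) was 82.1, 71.7 and 92.0 in sham, 20.5, 18.0 and 11.1 at day 2, 51.6, 80.2 and 50.8 at day 7, and 71.8, 65.5 and 30.0 at day 14. No injured bound library overlapped sham, and in unbound RNA day 2 lay below sham while day 7 and day 14 overlapped it. Cbs fell 9.79-fold in bound RNA at day 2 (log2 fold -3.29, SE 0.43, adjusted p = 2.55e-05), 3.97-fold at day 7 (log2 fold -1.99, SE 0.43, adjusted p = 0.00307) and 3.23-fold at day 14 (log2 fold -1.69, SE 0.43, adjusted p = 0.0145). The day 14 call was lost without sham bound replicate 1 or 2 or day 14 bound replicate 2 (adjusted p of up to 0.0679). In unbound RNA Cbs fell 4.96-fold at day 2 (log2 fold -2.31, SE 0.43, adjusted p = 0.00108). Cth had bound log2 folds of -1.52, -1.42 and -0.79. Its day 2 call was lost without day 2 bound replicate 2 or 3 and its day 7 call without day 7 bound replicate 2 (adjusted p of up to 0.0547 and 0.0518).

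The branched-chain and propionyl-CoA group was called lower in bound RNA at each day for all members but Bckdhb. Bckdha and Bckdhb are subunits of the dehydrogenase that commits branched-chain keto acids to oxidation, Ivd and the carboxylase of Mccc1 and Mccc2 act on leucine, Hibch acts on valine, and Pcca and Pccb form propionyl-CoA carboxylase. Of these 8 genes, 7 were lower at day 2, 8 at day 7 and 7 at day 14, and 4 (Ivd, Mccc1, Mccc2 and Pcca) were lower in unbound RNA at day 2. Bckdhb was the exception at day 2 and day 14. Bound Mccc1 (RPKM) was 61.8, 46.8 and 46.7 in sham, 15.3, 7.25 and 5.05 at day 2, 15.1, 12.9 and 11.8 at day 7, and 17, 16.1 and 16.3 at day 14. Unbound Mccc1 (RPKM) was 15.3, 13.9 and 19.5 in sham, 7.27, 4.60 and 6.31 at day 2, 10.9, 14.4 and 9.43 at day 7, and 12.9, 12.4 and 7.65 at day 14. Every injured bound library lay below sham, while unbound day 7 overlapped sham. Mccc1 fell 5.89-fold in bound RNA at day 2 (log2 fold -2.56, SE 0.29, adjusted p = 6.19e-06), 3.78-fold at day 7 (log2 fold -1.92, SE 0.29, adjusted p = 0.000197) and 3.05-fold at day 14 (log2 fold -1.61, SE 0.29, adjusted p = 0.00222). In unbound RNA it fell 2.57-fold at day 2 (log2 fold -1.36, SE 0.29, adjusted p = 0.00329).

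Partner subunits had close folds in the leucine carboxylase and in propionyl-CoA carboxylase, and folds further apart in the keto acid dehydrogenase. Mccc2 had bound log2 folds of -2.48, -2.05 and -1.67, beside -2.56, -1.92 and -1.61 for Mccc1. Pcca had -1.85, -1.5 and -1.22 and Pccb -1.63, -1.42 and -1.08. Bckdha fell from 811 ± 301 RPKM in sham bound RNA to 199 ± 127 at day 2, with log2 folds of -2.12, -1.76 and -1.57, all called. Bckdhb, far scarcer at 27.5 ± 10.4 RPKM in sham, had -0.45, -1.04 and -0.68, and its call at day 7 was lost without sham bound replicate 2 or day 7 bound replicate 3 (adjusted p of up to 0.0867). The difference between subunits was not tested. Ivd had -1.47, -1.48 and -0.90 and Hibch -1.01, -1.38 and -0.78, and all were called, with the day 14 calls of both lost without sham bound replicate 1 or 2 or day 14 bound replicate 1 or 2. In unbound RNA at day 2 the fall of Mccc2 (-1.42) was lost without sham replicate 3 or day 2 replicate 2 or 3, and that of Pcca (-0.89) without these or sham replicate 1.

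The aminoacylases release amino acids from their acetylated forms. Acy1 acts on a broad set of them and Acy3 on aromatic ones. Acy1 alone was called, and only at day 2 in bound RNA. Bound Acy1 (RPKM) was 80.1, 70.8 and 65.9 in sham, 55.9, 21.8 and 28.3 at day 2, 98.7, 52.4 and 71.5 at day 7, and 70.5, 60.8 and 43.1 at day 14. Unbound Acy1 (RPKM) was 36.8, 44.9 and 70.3 in sham, 32.4, 19.4 and 28.4 at day 2, 44.5, 52.0 and 53.3 at day 7, and 45.6, 49.0 and 17.9 at day 14. Day 2 lay below sham in both fractions, and the later days overlapped sham. Acy1 fell 2.19-fold in bound RNA at day 2 (log2 fold -1.13, SE 0.36, adjusted p = 0.0326), a call lost without sham bound replicate 1 or 2 or day 2 bound replicate 2 or 3 (adjusted p of up to 0.18). At day 7 its log2 fold was 0.00 (adjusted p = 0.996). Acy3 was the most abundant member in sham, at 2132 ± 1001 RPKM in bound and 1498 ± 376 in unbound RNA. Its bound libraries spread widely and its log2 folds of -1.22, -0.57 and -0.44 were not called.

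Between the days after injury few members were called, although most had a higher level than at day 2. In bound RNA the median log2 fold over the members was 0.48 at day 7 and 0.75 at day 14 against day 2. All genes had medians of -0.04 and -0.01 there. In unbound RNA the members had medians of 0.61 and 0.47, against 0.004 and 0.06 for all genes. In bound RNA from day 2 to day 7, Aadat, Asl, Pipox and Dao rose and Gldc fell, where 3.56% of all genes were called higher and 3.53% lower. These members were named after their values were seen. Log2 folds were 2.78 for Aadat, 1.16 for Asl, 0.98 for Pipox, 0.94 for Dao and -2.09 for Gldc (adjusted p = 0.000651, 0.0285, 0.0188, 0.0426 and 0.00708). From day 2 to day 14, Hpd, Aadat, Cbs, Pipox and Asl rose by 2.53, 2.25, 1.60, 1.20 and 1.10 on the log2 scale and Gldc fell by 1.56, with 3.24% of all genes higher and 3.4% lower. Of these bound calls, those of Aadat on both days, Gldc at day 7 and Pipox at day 14 were kept whichever library was left out, and those of Asl, Dao and Cbs, with Pipox at day 7, were lost without day 2 bound replicate 2 or 3, Hpd without replicate 2 and Gldc at day 14 without replicate 1 or 3. Each of these lost calls was also lost when some library of the later day was left out, as Hpd and Gldc without day 14 bound replicate 1 or 2. The counts depended on day 2 bound replicate 1, the library with the high enzyme sum. Without it 12 members were higher at day 7 than at day 2 and 21 at day 14, whereas without day 2 bound replicate 2 the counts were 1 and 2. The shares of all genes called in these fits were not counted. In unbound RNA, Aadat, Cbs and Asl rose from day 2 to day 7 by 1.92, 1.86 and 1.16 (1.69% of all genes higher), and Cbs alone was higher at day 14 than at day 2, by 1.67 (2.19%). Each of these unbound calls was lost without day 2 unbound replicate 2, among other libraries. From day 7 to day 14 limma called no member in either fraction, where 0% of all genes were called in bound and 0.00729% in unbound RNA. At an unadjusted p under 0.05 there were 5 higher members in bound and 0 in unbound RNA, with no share of all genes counted at that threshold.

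In uninjured kidney the enzymes were, on the whole, richer in bound than in unbound RNA. Of the 36, 10 were called higher in sham bound RNA and 1 lower, where 14.6% of all genes were higher and 12.9% lower, and the median log2 fold was 0.58 against 0.01 for all genes. The 10 were Hgd (2.26), Bckdha (1.91), Cbs (1.72), Mccc1 (1.64), Mccc2 (1.59), Gldc (1.31), Pccb (1.28), Shmt1 (1.15), Pcca (1.11) and Aldh4a1 (1.10), 5 of them from the branched-chain group. Gcsh was lower (-0.98). Without sham bound replicate 2 the calls of Gcsh, Gldc and Shmt1 were lost, with adjusted p of up to 0.0635, 0.109 and 0.0902 over the libraries left out. Hgd, for instance, was 848, 665 and 626 RPKM in sham bound and 146, 135 and 164 in sham unbound libraries, and Bckdha 989.6, 979.9 and 464 against 188, 200.1 and 226. Neither pair of groups overlapped. With the mouse as a block (the replicate block), 16 members were higher and 1 lower, where 21% and 18.3% of all genes were called, and Haao, Agxt2, Prodh, Amt, Cth and Ivd joined the higher ones. The direction of the enzymes was opposite to that of the proximal tubule markers given above, of which 9 of 12 were lower in the same comparison.

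After injury no difference between the fractions was called in the fit without the mouse as a block. At day 2, day 7 and day 14 limma called no member between bound and unbound RNA, where 1.68%, 2.35% and 0.816% of all genes were called. At an unadjusted p under 0.05 there were 0, 3 and 1 members, a threshold at which the share of all genes was not counted. Medians of bound over unbound were 0.04, -0.12 and 0.34. With the replicate block there were 0 calls at day 2 and day 14 and 4 at day 7, where 11.4% of all genes were called: Hpd (-0.89), Kmo (-0.88) and Gatm (-1.02) were lower in bound RNA and Amt (1.38) was higher. These 4 were named after their values were seen. Their share of the members was no larger than the share of all genes called in that fit, so the members did not stand out there.

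**Figure D4:**
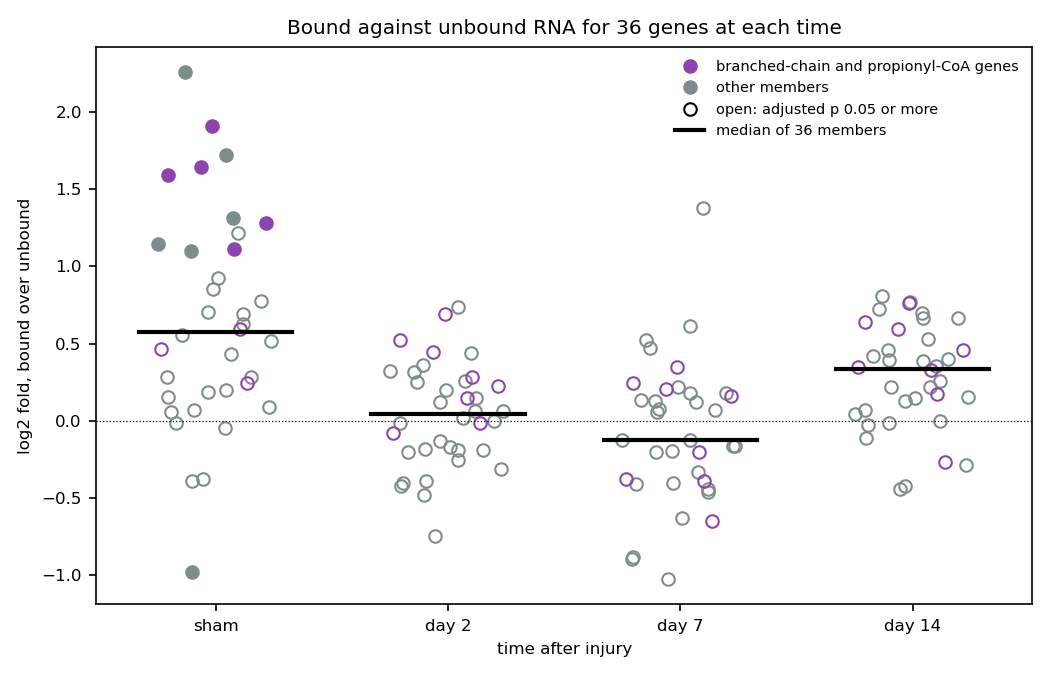
Points give the log2 fold of bound over unbound RNA (vertical axis) of the 36 genes at each time (horizontal axis), filled where the adjusted p lay under 0.05 and purple for the branched-chain and propionyl-CoA genes, and bars mark the medians. Filled points occur in sham alone (10 above 0 and 1 below), and the median goes from 0.58 in sham to 0.04, -0.12 and 0.34 at day 2, 7 and 14.

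Whether the change from sham differed between fractions was tested as an interaction. The median over members was -0.51 at day 2, -0.86 at day 7 and -0.37 at day 14, a negative value meaning a lower fold in bound RNA, against -0.01, -0.09 and -0.12 for all genes. Limma called none of the 36 at any day, where 0%, 0.146% and 0.197% of all genes were called. At an unadjusted p under 0.05 there were 6, 16 and 7 members, and the share of all genes at that threshold was not counted. The lowest adjusted p was 0.810, 0.131 and 0.218. With the replicate block 5 members were lower at day 7 (Hgd, Agxt2, Bckdha, Mccc1 and Pcca). Of all genes 5.26% were called there and 2.83% were lower. At day 14 Gcsh alone was higher, where 6.28% of all genes were called and 3.4% were higher. The members were thus called less often than all genes at day 14. Bound Mccc1 fell by 1.92 on the log2 scale to day 7 where its unbound log2 fold was -0.48, and bound Bckdha fell by 1.76 where the unbound log2 fold was -0.20. Since the interaction contains the sham difference between fractions, it shares its libraries with the comparison in sham.

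Other enzymes of amino acid metabolism were taken from a list of 86 symbols, of which 84 were found and 73 tested. In bound RNA 37 were lower and 5 higher at day 2 (median -0.86), 30 lower and 3 higher at day 7 (median -0.82), and 18 lower and 3 higher at day 14 (median -0.43). Of all genes 6.48% were lower and 13.3% higher at day 2, 7.55% and 15.2% at day 7, and 4.58% and 8.71% at day 14, so that the higher calls of the list made up a smaller share than those of all genes. Over the libraries left out the higher counts ran from 2 to 4, 0 to 3 and 0 to 5, and the lower count at day 14 from 10 to 21. In unbound RNA 25 were lower and 6 higher at day 2 (median -0.58), where 5.04% and 9.76% of all genes were, and the lower count ran from 7 to 26 over the libraries left out. At day 7 limma called none (median -0.25), although 16 were lower and 4 higher at an unadjusted p under 0.05, and 1 was lower and 1 higher with the replicate block and 13 and 4 in the fit of only the groups compared. At day 14, 2 were lower (median -0.34, with 0.248% of all genes lower), among them Tst, a sulfurtransferase (-1.41), but none was with no filter, with quantile normalization, in the fit of only the groups compared, or without any 1 of 5 of the 6 libraries, all but day 14 replicate 2. Among the largest falls in bound RNA at day 2 were those of Uroc1 of histidine breakdown (-2.83), the branched-chain aminotransferase Bcat1 (-2.57) and the glycine methyltransferase Gnmt (-2.48). This list also held genes that rose at day 2. The arginases Arg1 and Arg2, which split arginine into ornithine and urea, rose by 3.82 and 1.87 on the log2 scale, and Aldh18a1, of proline synthesis, by 1.30. Arg1 was listed at 0 in 2 of 3 sham bound libraries and at 0.118 RPKM in the other, so its fold depends on the pseudocount, and it was at 8.72 ± 6.15 RPKM at day 2. Arg2 was at 13.0 ± 4.09 RPKM in sham and 48.0 ± 9.24 at day 2.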

How the data were processed

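RNA of 24 libraries (8 groups of 3 libraries) was sequenced after a Takara low-input preparation. Per the submitters' processing notes, STAR 2.0.4b, featureCounts 1.4.5 of Subread and edgeR were used, and the authors deposited RPKM values, 1 column per library. The genome build, and whether counting used the strand, are not given in the sources used here, so reads of overlapping antisense genes cannot be told apart. Of 41831 lines, 1081 identical repeats were dropped, which left 40750 genes, 14673 of them listed at 0 throughout.

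Depth was inferred from the spacing of low values with exon lengths of GENCODE M21: 73.6% to 77.9% of values up to 50 reads came out whole within 0.02 reads, where 4% would by chance, and depths were 15700000 to 24700000 reads (median 20200000). Library totals were not used otherwise.

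Group means of the 8 groups were fitted to log2 (RPKM + 0.5) with limma 3.58.1 (R 4.3.3), for the 13721 genes that had 1 RPKM or more in 3 or more libraries, with moderated variances that follow abundance. P-values were Benjamini-Hochberg adjusted over all tested genes within each of 19 comparisons and called under 0.05. The median SE of a fold against sham was 0.303, and 0.428 for an interaction. The code was tested on simulated data.

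The members, role groups, the wider list, the marker lists and the motifs were chosen with earlier results of these data known. Values in every library are given for the member with the largest called fold of each of 9 role groups in bound RNA. Others are named as their place in a role group, a count or a test requires. Of the wider list, the 4 largest calls in each direction in bound RNA at day 2 were to be named, and some of these are not reported here. Alternatives were other pseudocounts (0.1 and 1), filters (none, and at least 5 RPKM), median-ratio rescaling, quantile normalization, a fit of the compared groups alone, a replicate block and leaving out each library.

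The labels do not say that a number pairs the fractions of a mouse, so library numbers were checked for pairing. Deviations of same-numbered bound and unbound libraries of the same time correlated at 0.27 to 0.67 across genes in all 12 pairs, above those of other numbers, so the fit with the mouse as a block is given beside comparisons of fractions. Different times come from different mice, and there r lay between -0.37 and 0.37. Only bound day 7 and day 14 had 3 of 3 values over 0.1, and there the block gave 0 calls among the members.

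Promoter sequences came from RefSeq tables of GRCm38.p6. Figures were drawn with matplotlib 3.10.9.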

Additional observations from a re-analysis of the deposited data

Results flagged for a closer look

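In the fit with the mouse as a block, the change from sham differed between bound and unbound RNA for 6 members. At day 7 the bound log2 change minus the unbound one was -1.79 for Hgd, -1.55 for Agxt2, -1.56 for Bckdha, -1.44 for Mccc1 and -1.31 for Pcca (adjusted p = 0.0462, 0.034, 0.0484, 0.0348 and 0.0343 by limma, with 5.26% of all genes called). At day 14 the bound change of Gcsh was higher by 0.96 (adjusted p = 0.0492 by limma, with 6.28% of all genes called). Of all genes 2.83% were lower at day 7 and 3.4% higher at day 14. Gcsh alone was thus a smaller share of the members than that of all genes. Without the block none of the 6 was called, with adjusted p of 0.192, 0.151, 0.158, 0.131, 0.132 and 0.247.

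The levels behind these values differed most in sham. Pcca was 54.3, 39.3 and 39.4 RPKM in the sham bound libraries and 20.4, 17.3 and 22.6 in the sham unbound ones, and 17.8, 13.5 and 14.5 against 18.5, 17.5 and 16.6 at day 7. Agxt2 was 71.7, 81.5 and 62.0 RPKM in sham bound and 26.4, 50.5 and 39.0 in sham unbound libraries, and 27.0, 27.6 and 16 against 39.0, 41.0 and 28.2 at day 7. Gcsh went the other way, at 109, 94.4 and 125 RPKM in sham bound and 220.3, 187 and 239 in sham unbound libraries, and 141, 152 and 59.4 against 138, 131 and 72.6 at day 14. In the same sham libraries 9 of 12 proximal tubule markers were lower in bound RNA, 4 of 4 podocyte markers higher and 3 of 4 tested principal cell markers higher, and the part of these in the differences was not tested.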

How the results depend on the processing

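No result reversed its sign under the alternatives run. Of the calls against sham among the members, 20 of 29 in bound RNA at day 2, 18 of 23 at day 7, 7 of 16 at day 14 and 8 of 17 in unbound RNA at day 2 were kept whichever library was left out, and 8 of 11 of those between fractions in sham. The count of members lower than sham in bound RNA ran from 21 to 32 at day 2 (highest without day 2 replicate 1), from 19 to 25 at day 7 and from 8 to 21 at day 14, where it was 8 without sham bound replicate 1 or 2 and 9 without day 14 bound replicate 1. In unbound RNA at day 2 it ran from 9 (without day 2 replicate 2) to 16 and was 11 without sham replicate 3, and the count of higher members from 0 to 1. The median fold in unbound RNA at day 14 was -0.29 without replicate 3 and at its lowest -0.74. Shares of all genes were not counted in the fits with a library left out.

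Fitting only the groups compared left 4 residual degrees of freedom in place of 16. Lower members in bound RNA then numbered 7, 21 and 0 at day 2, 7 and 14. In unbound RNA they numbered 24, 14 and 0. The same kind of fit for the day 7 interaction holds more groups and so more degrees of freedom. It gave 12 members with a lower interaction, where 3.45% of all genes were lower. Left-out libraries gave 0 to 4 lower members for the day 2 interaction (4 without day 2 bound replicate 1), 0 to 1 for day 7 (1 without sham bound replicate 3) and 0 to 1 higher for day 14 (1 without day 14 bound replicate 3). With the replicate block, which pairs the fractions of a mouse, the interaction gave 5 lower members at day 7 and 1 higher at day 14. Of all genes 2.83% were lower and 3.4% higher there. The comparison of fractions gave 16 higher members in sham and 4 calls at day 7, where 21% and 11.4% of all genes were so called. Between bound day 2 and day 14, whose numbers do not pair mice, the block gave 11 higher members in place of 5, where 3.78% of all genes were higher in place of 3.24%. Against sham it moved no count of the 36 members by over 1.5 times, while the wider list had 5 higher genes in place of 3 in bound RNA at day 7 and 1 lower and 1 higher in place of 0 in unbound RNA at day 7.

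Rescaling moved the members' median to -1.60 in bound RNA at day 7, -1.12 at day 14 and -0.69 in unbound RNA at day 7, and quantile normalization gave -1.63 and -1.12 in bound RNA. Between day 2 and day 7 in bound RNA the 4 higher members became 2 with no filter and 1 with quantile normalization or with only the groups compared. Between day 2 and day 14 the 5 became 2 with no filter, 3 with rescaling or quantile normalization and 0 with only the groups compared. In unbound RNA the 3 of day 7 against day 2 became 9 with only the groups compared, and 0 without day 2 replicate 2 or day 7 replicate 2 or 3.

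For the wider list, left-out libraries gave 2 to 4 higher genes in bound RNA at day 2, 0 to 3 at day 7 and 0 to 5 at day 14, 10 to 21 lower at day 14, and 7 to 26 lower in unbound RNA at day 2 and 0 to 3 at day 14. Only the groups compared gave 3 lower and 3 higher in bound RNA at day 2, 0 and 0 at day 14, and 13 lower and 4 higher in unbound RNA at day 7. Causes of these changes were not tested.

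Values of Hpd, Dpys, Kynu and Amt rest on the fewest reads, down to about 12, 21, 64 and 33 in their lowest library. For Hpd, Dpys and Amt the exon lengths used did not give whole reads in every library, so these numbers are approximate. With 3 mice a group the SE of a member's fold against sham had a median of 0.37.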
